A study of Mus musculus with 11 samples.

Results

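The promoter-flanking regions described here are the stretches of acetylation of histone H3 at lysine 27 (H3K27ac) that lie next to a transcription start site (TSS) without covering it. They were chosen from the authors' deposited table by 3 criteria: a distance to the TSS of 1 to 1000 bp, a width under 5000 bp, and no overlap with a site of the DNA-binding protein RBPJ. The criteria kept 3180 of 56342 regions, assigned by the authors to 2636 genes, and none of them uses a measured change. Of these genes, 2148 had 1 flanking region, 438 had 2 and 50 had 3 or more, up to 8. The cells were Beko, a mouse pre-T cell line, with no genetic change named in the labels. They received apicidin at 0.01 mg/ml, DAPT at 10 mg/ml (doses as labelled; DAPT is called GSI below) or DMSO for 24 h, and H3K27ac was profiled by chromatin immunoprecipitation and sequencing with 2 libraries per condition. The other libraries of the 11 were 2 for RBPJ in DMSO-treated cells and 1 input per condition. A single line stands for pre-T cells here, and since the labels do not say that the libraries of a condition were separate cultures, p-values measure only the spread between libraries, which may be technical. Apicidin is named an HDAC3 inhibitor by the submitters, and is generally known to inhibit class I histone deacetylases.

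H3K27ac is written by acetyltransferases and removed by histone deacetylases. At an active promoter the start site itself is depleted of nucleosomes, and the acetylated nucleosomes stand upstream and downstream of it. A region called beside a start site may therefore be a shoulder of the promoter or a separate element close to it. Gamma-secretase, which GSI blocks, releases the intracellular domain of Notch, which acts through RBPJ and drives the early T-cell programme.

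Most defining T-lineage genes carried H3K27ac near their start in Beko cells, and some markers of other lineages did too. Of 8 defining T-lineage genes, 7 (Cd3e, Cd3g, Lck, Ptcra, Rag1, Rag2 and Thy1) had an H3K27ac region at or within 1000 bp of the TSS, with base means of 482 to 5061 in the authors' deposited table, and Cd3d had none there. Defining genes of B cells (5 genes), myeloid cells (4), natural killer cells (3) and fibroblasts or epithelia (3) had none within that distance. Other genes of the longer marker lists did have flanks, with base means of 378 at Igll1 (B lineage), 25.8 and 19.6 at Cd68 (myeloid) and 88.8 at Prf1 (natural killer). Of 2 defining erythroid genes, Gata1 had none, and the region of Klf1 had a base mean of 870.7, above the lowest T-lineage value of 482. Epor, of the longer erythroid list, had a flank with a base mean of 190.8. The base mean is the authors' mean of normalised read counts over libraries; depth per library is unknown, as the table holds no value per library.

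The letters around the start sites of 5 genes are shown because changes in their flanks recur below. They are printed from 250 bases before to 50 bases after the RefSeq start on build GRCm38.p6, whereas the regions themselves are placed on mm9, so the correspondence between the 2 is by gene and not by coordinate. Trib3 had the flank that fell furthest with apicidin among those at or above the members' median base mean, Hmgb2 the strongest of the 11 flanks named below for the largest falls with apicidin, Mthfd1 flanks that differed across the start, and Gadd45b and Gadd45g flanks that rose. The windows are chr2:152344011-152344310 (minus strand) for Trib3, chr8:57511593-57511892 for Hmgb2, chr12:76254982-76255281 for Mthfd1, chr10:80929841-80930140 for Gadd45b and chr13:51846425-51846724 for Gadd45g, the last 4 on the plus strand. Capitals mark matches, on either strand, to any of the motifs spelled out after the sequences.
Trib3: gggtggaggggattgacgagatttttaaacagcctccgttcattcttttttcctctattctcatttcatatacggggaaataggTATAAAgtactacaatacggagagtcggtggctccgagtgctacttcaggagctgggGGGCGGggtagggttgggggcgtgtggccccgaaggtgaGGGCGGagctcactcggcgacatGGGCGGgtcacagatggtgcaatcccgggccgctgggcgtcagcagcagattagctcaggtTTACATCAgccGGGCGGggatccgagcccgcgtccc
Hmgb2: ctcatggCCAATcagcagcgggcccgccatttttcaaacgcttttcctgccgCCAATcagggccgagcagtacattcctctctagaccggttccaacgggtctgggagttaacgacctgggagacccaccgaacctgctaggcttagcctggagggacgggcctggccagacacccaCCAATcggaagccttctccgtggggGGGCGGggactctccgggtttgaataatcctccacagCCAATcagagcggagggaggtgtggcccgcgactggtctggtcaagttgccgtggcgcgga
Mthfd1: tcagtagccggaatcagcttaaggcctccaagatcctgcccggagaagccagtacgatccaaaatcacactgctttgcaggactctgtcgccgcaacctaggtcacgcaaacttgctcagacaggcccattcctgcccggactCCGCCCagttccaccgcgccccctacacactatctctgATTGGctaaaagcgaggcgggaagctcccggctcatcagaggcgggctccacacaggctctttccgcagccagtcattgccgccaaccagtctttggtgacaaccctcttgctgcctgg
Gadd45b: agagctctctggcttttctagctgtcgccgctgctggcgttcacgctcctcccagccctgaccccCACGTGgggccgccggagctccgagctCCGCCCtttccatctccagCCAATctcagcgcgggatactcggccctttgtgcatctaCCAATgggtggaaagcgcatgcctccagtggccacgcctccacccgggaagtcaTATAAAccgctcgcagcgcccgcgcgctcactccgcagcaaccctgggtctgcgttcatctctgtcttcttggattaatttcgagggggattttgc
Gadd45g: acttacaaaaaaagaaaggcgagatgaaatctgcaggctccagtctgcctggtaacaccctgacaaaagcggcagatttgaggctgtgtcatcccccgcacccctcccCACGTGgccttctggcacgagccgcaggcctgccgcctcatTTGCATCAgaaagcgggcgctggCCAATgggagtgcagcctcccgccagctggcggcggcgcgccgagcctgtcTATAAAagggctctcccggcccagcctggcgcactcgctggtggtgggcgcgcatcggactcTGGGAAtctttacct

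The motifs searched were the GC box GGGCGG, the CCAAT box CCAAT, the TATA box TATAAA, the cyclic AMP response core TGACGT, the C/EBP-ATF composite TGATGNAA, the RBPJ core TGGGAA and the E box CACGTG. Among 32851 RefSeq promoter windows of this length, 35.7% held GGGCGG, 37.4% CCAAT, 13.6% TATAAA, 7.51% TGACGT, 3.97% TGATGNAA, 25.6% TGGGAA and 7.15% CACGTG. The Trib3 window held 4 GC boxes, 1 TATA box and 1 C/EBP-ATF composite. In Hmgb2 there were 4 CCAAT boxes and 1 GC box, and in Mthfd1 1 of each. Gadd45b held 2 CCAAT boxes, 1 GC box, 1 TATA box and 1 E box. Gadd45g held 1 each of the CCAAT box, the TATA box, the C/EBP-ATF composite, the RBPJ core and the E box. All 5 windows were rich in CpG, with 16 to 24 CpG dinucleotides against a median of 7 over all windows. A match is a description of letters only.

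Flanking regions were small and of middling strength. Their median width was 544 bp (quartiles 325 and 920) against 620 bp for all regions, and their median base mean was 67.2 (range 8.75 to 3236) against 61.3 in the authors' deposited table. They lay close to the start, at a median of 205 bp, and 1834 of them within 250 bp. A TSS-covering region of any gene stood within 1000 bp of 1662 flanks (52.3%), with a median gap of 144 bp (quartiles 100 and 213). By gene, 1547 flanks belonged to a gene that also had a TSS-covering region, 555 were part of a pair on either side of a start that no region covered, and 1078 lay beside an uncovered start with no partner across it. The 5 strongest flanks belonged to Hnrnpl, which encodes an RNA-binding regulator of splicing (base mean 3236), Plin3, a lipid-droplet protein gene (1802), Rfx1, a transcription factor gene (1740), Hnrnpa3, another RNA-binding protein gene (1634), and Traf1, a gene of signalling downstream of tumour necrosis factor receptors (1559).

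With apicidin, 249 flanking regions rose and 319 fell by the DESeq2 test of the authors' deposited table at an adjusted p under 0.05, or 17.9% of 3180, whereas 23.8% of all 56342 regions were called. The members' shares were 7.83% higher and 10.0% lower, against 9.69% higher and 14.1% lower over all regions. Their median log2 fold change was 0.0165 and that of all regions 0.0040. TSS-covering regions held to the same limits of width and RBPJ overlap behaved otherwise: of 6274, 370 rose and 2516 fell (46.0% called), with a median of -0.26 and a median base mean of 409. Regions 1001 to 10000 bp away, 15937 in number, rose 1383 times and fell 981 times (14.8% called), with a median of 0.16 and a median base mean of 39.7. Flanks thus lay between promoters and more distant regions in strength and in median fold change alike. The excess of falls over rises depended on where 0 was set: 43.8% of the called flanks were higher as deposited, 60.8% (343 higher, 221 lower) after centring on regions of at least the table's median base mean (centre -0.10), and 55.1% (282 higher, 230 lower) after subtracting the trend over base mean.

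The apicidin response changed with distance from the start. Within 250 bp, 133 of 1834 flanks rose and 223 fell, and their median log2 fold change was -0.09, from the authors' deposited table. From 251 to 500 bp, 45 of 507 rose and 54 fell (median 0.01), from 501 to 750 bp 38 of 371 rose and 21 fell (median 0.24), and from 751 to 1000 bp 33 of 468 rose and 21 fell (median 0.30). The shares lower declined with distance (12.2%, 10.7%, 5.66% and 4.49%, against 14.1% of all regions). The shares higher had no such order (7.25%, 8.88%, 10.2% and 7.05%, against 9.69% of all regions). Strength moved with distance: the median base means of the 4 bins were 89.0, 64.5, 37.0 and 33.8. After subtracting the trend over base mean the medians were -0.04, 0.01, 0.15 and 0.18, so a rise with distance remained at a smaller size. The part that strength has in the remainder was not tested. GSI medians over the same bins were 0.04, 0.07, 0.06 and 0.02, with no such order.

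**Figure D1:**
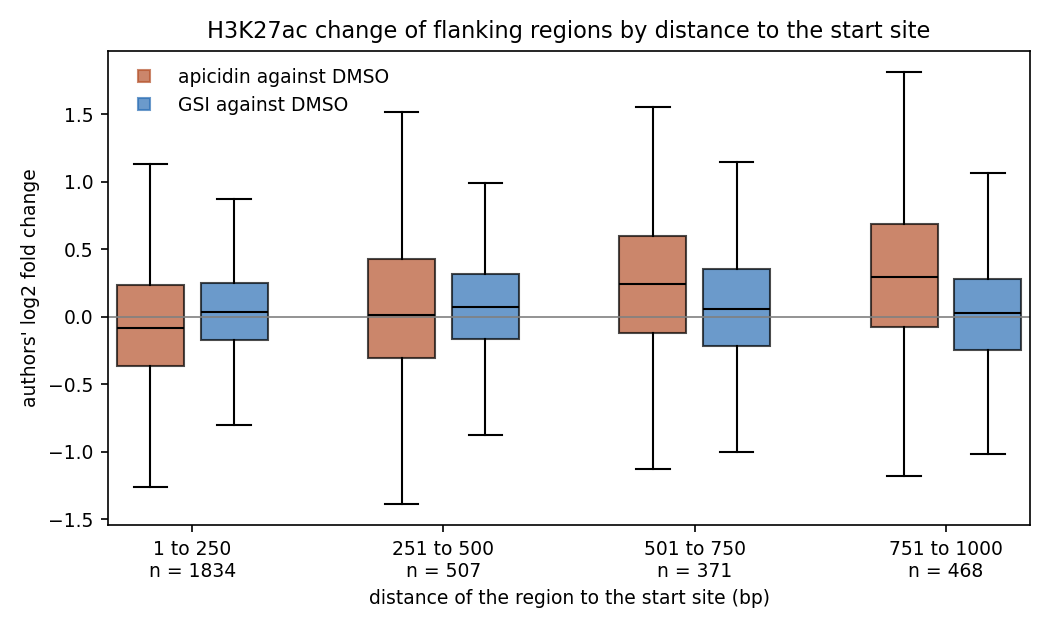
Distribution of the authors' log2 fold change of promoter-flanking regions in 4 bins of distance to the start site, for apicidin and for GSI, each against DMSO. Boxes span the quartiles with a line at the median, and whiskers reach 1.5 times the interquartile range (points beyond are not drawn). The apicidin medians run -0.09, 0.01, 0.24 and 0.30 from the nearest bin to the farthest, and the GSI medians lie between 0.02 and 0.07.

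Calls with apicidin were concentrated in strong flanks, as over the whole table. By quartile of the base mean of all regions, 5.87%, 8.50%, 19.7% and 43.7% of the flanks were called in the authors' deposited table, against 5.19%, 10.3%, 27.04% and 52.8% of all regions. In the weakest quartile 34 flanks rose and 4 fell (median log2 fold change 0.40), and in the strongest 78 rose and 149 fell (median -0.15). All regions of those quartiles had medians of 0.25 and -0.14. Flanks on either side of the start could be told apart for 2052 regions. Of 810 downstream flanks 77 rose and 79 fell with apicidin (median 0.06), and of 1242 upstream flanks 91 rose and 118 fell (median 0.02), again from the authors' deposited table. The shares higher were 9.51% downstream and 7.33% upstream, against 7.83% of all flanks and 9.69% of all regions. The shares lower, 9.75% downstream and 9.50% upstream, were near the 10.0% of all flanks and below the 14.1% of all regions. With GSI, 17 downstream flanks rose and 13 fell of 376 with an adjusted p (median over all downstream flanks 0.01). Upstream, 38 flanks rose and 11 fell of 626 (median 0.09). The GSI shares higher were 4.52% downstream and 6.07% upstream, below the 6.62% of all tested regions. The GSI shares lower were 3.46% and 1.76%, below the 7.17% of all tested regions.

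**Figure D2:**
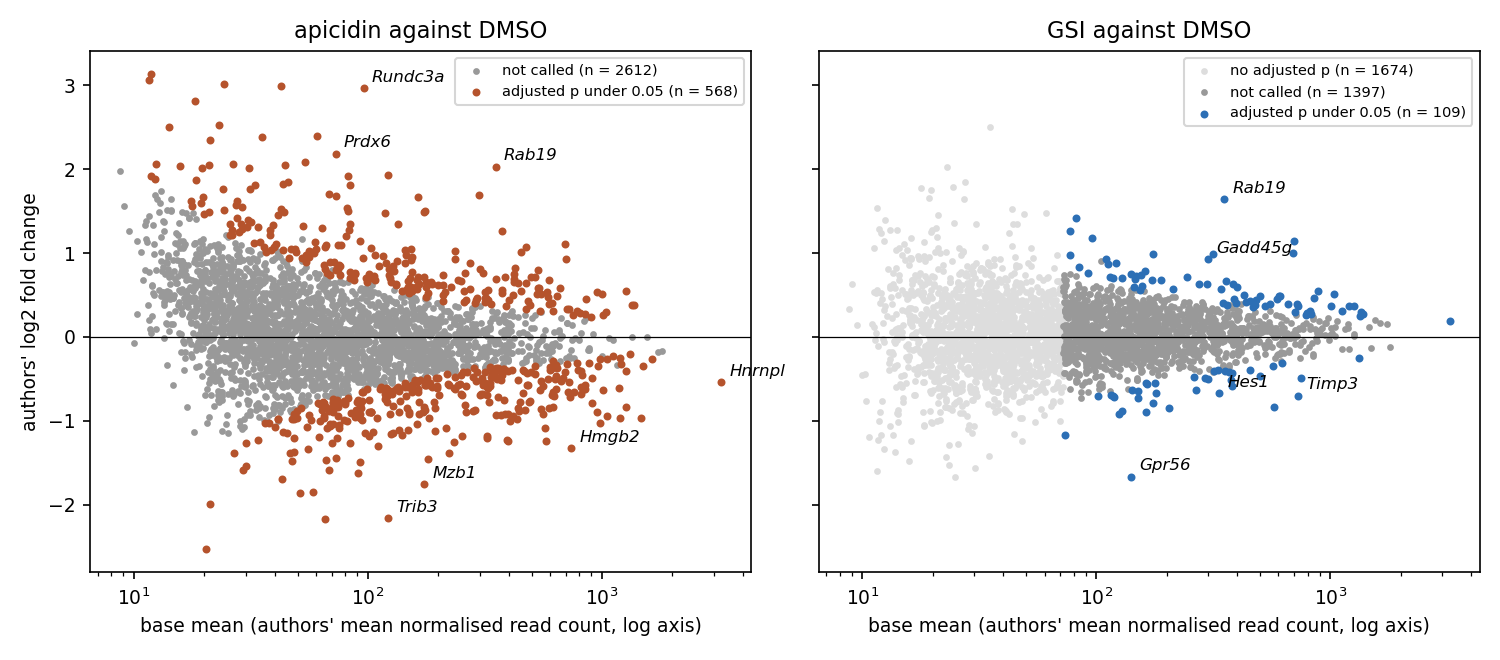
Authors' log2 fold change of the 3180 promoter-flanking regions (y axis) against base mean on a log axis, for apicidin (left) and GSI (right), each against DMSO. Coloured points passed an adjusted p of 0.05 (568 for apicidin, 109 for GSI), grey points did not, and pale points had no adjusted p (1674 for GSI, all weak); gene names mark some of the called flanks.

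The flanks that rose furthest with apicidin were ranked among those at or above the members' median base mean of 67.2. In the authors' deposited table the flank of Rundc3a, a RUN-domain protein gene (chr11:102254816-102256060, 98 bp from the TSS, base mean 95.8), rose by 2.97 ± 0.31 on the log2 scale (SE, adjusted p = 5.06e-20). Next there was the flank of Prdx6, which encodes a peroxiredoxin (chr1:163181783-163182690), at 2.18 ± 0.32 (adjusted p = 3.56e-10). The flank of Rab19, a small GTPase gene (chr6:39328649-39331034, 392 bp upstream), was the strongest of the 12, with a base mean of 350.9 and a rise of 2.03 ± 0.16 (adjusted p = 1.59e-32) in the authors' deposited table. Atp6v0a1, a subunit gene of the vacuolar proton pump, followed at 1.93 ± 0.24, and Lztfl1, a regulator of ciliary protein traffic, at 1.92 ± 0.31. The authors' deposited table also gave rises at Gpr25, an orphan receptor gene (1.81 ± 0.28), Adamts6, a secreted metalloprotease gene (1.71 ± 0.30), Abhd8 (1.69 ± 0.16), Cd101, a leukocyte surface protein gene (1.68 ± 0.29), and Fam166b (1.67 ± 0.22). Plcxd2 (1.53 ± 0.27) and Tiam1, which encodes an activator of the GTPase Rac1 (1.504 ± 0.20), completed the 12. Of these 12 flanks, those of Abhd8, Gpr25, Plcxd2 and Tiam1 lay downstream of the start, and those of Rab19, Lztfl1 and Cd101 upstream.

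The 11 named falls lay between -2.16 and -1.26 on the log2 scale. Trib3, which encodes a pseudokinase of the stress response, had its only flank 12 bp from the TSS (chr2:152169338-152169783, base mean 121.6). That flank fell by 2.16 ± 0.25 with apicidin (adjusted p = 1.00e-15) in the authors' deposited table. Mzb1, which encodes an endoplasmic reticulum protein known from B cells, fell by 1.75 ± 0.19 (adjusted p = 1.36e-17) there. Spon2, a secreted matrix protein gene, had falls of 1.59 ± 0.32 and 1.30 ± 0.24 at its 2 flanks, per the authors' deposited table. The flank of Aspm, a spindle-pole protein gene, fell by 1.49 ± 0.26, and that of Cdkn3, a phosphatase gene that acts on cyclin-dependent kinases, by 1.39 ± 0.18 (authors' deposited table). The flank of Hmgb2, a chromatin protein gene (chr8:59989077-59990478, 161 bp upstream, base mean 740.3), fell by 1.32 ± 0.12 (adjusted p = 1.62e-26). The remaining named falls in the authors' deposited table were at Slc22a12, a urate transporter gene (-1.46 ± 0.19), Capn12, a calpain protease gene (-1.45 ± 0.30), Muc1, a membrane mucin gene (-1.26 ± 0.30), and Zxdb, a zinc-finger gene on the X chromosome (-1.26 ± 0.29). These 23 calls held after centring, after subtracting the trend over base mean, and after re-adjusting the p-values over all regions.

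**Figure D3:**
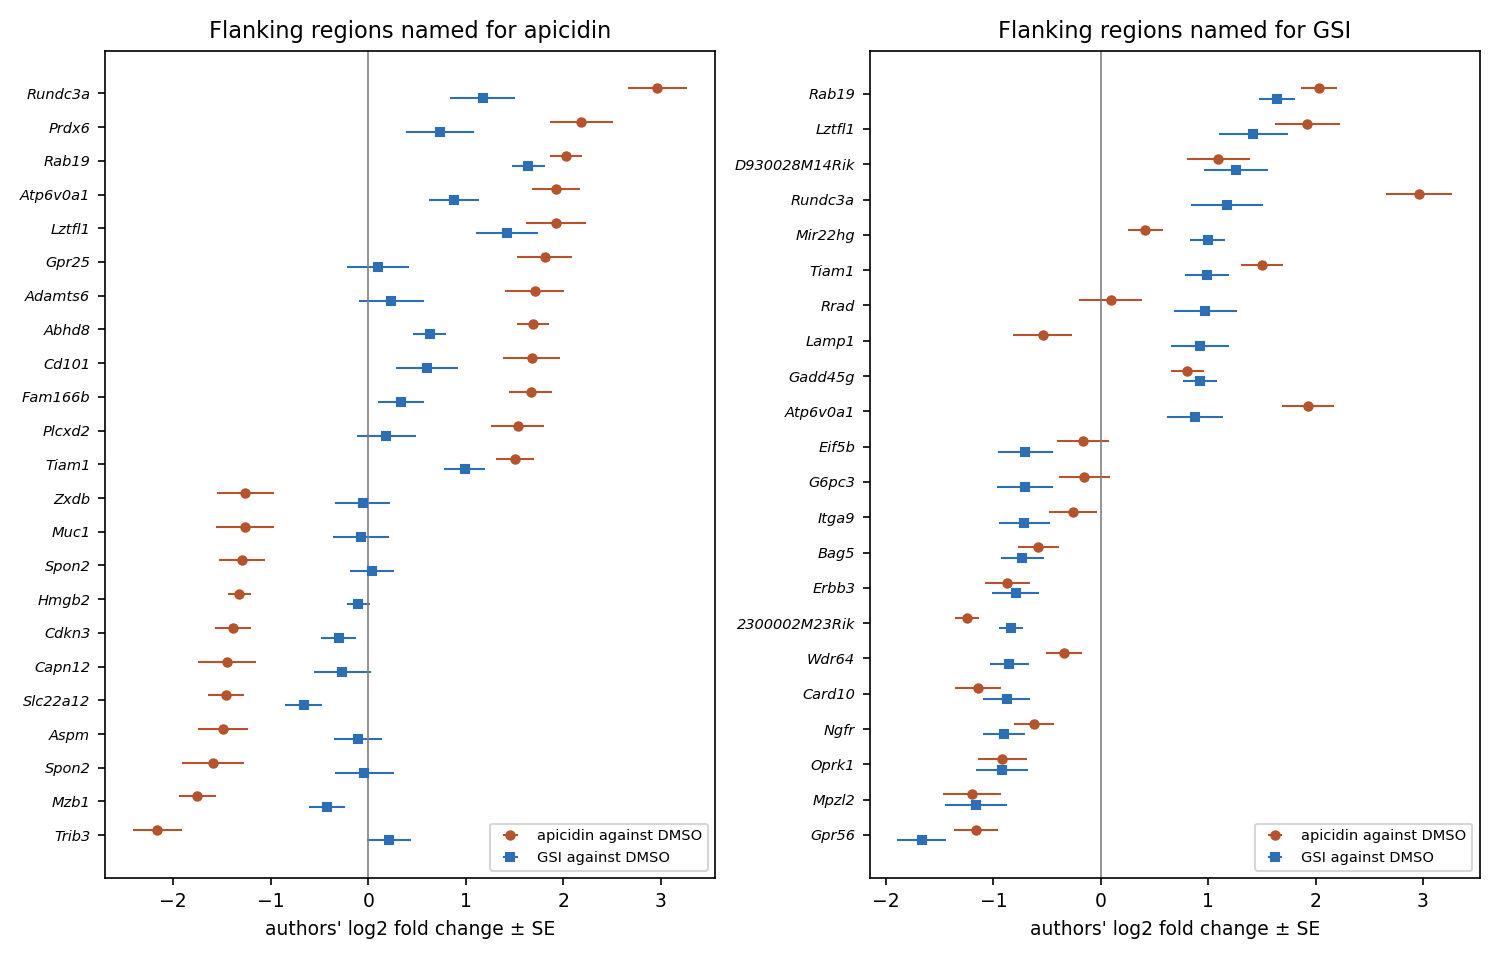
Authors' log2 fold change with its SE for flanks among the 12 highest and 12 lowest called regions at or above the members' median base mean, chosen by apicidin (left) and by GSI (right); circles give apicidin and squares GSI, each against DMSO. A gene written more than once has more than 1 flank. Rundc3a stands at 2.97 ± 0.31 with apicidin and 1.18 ± 0.33 with GSI, and Trib3 at -2.16 ± 0.25 with apicidin and 0.21 ± 0.22 with GSI.

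With GSI, 71 flanks rose and 38 fell of the 1506 for which the authors' deposited table holds an adjusted p (7.24%), whereas 13.8% of the 25756 regions tested in all were called. Higher flanks made up 4.71% against 6.62% over all regions, and lower flanks 2.52% against 7.17%. The other 1674 flanks were weak (base mean under 72.1) and are untested, not unchanged. Over all 3180 flanks the median log2 fold change was 0.04, and over all regions 0.0022. TSS-covering regions of the same limits had 234 higher and 200 lower of 6012 (7.22% called), and regions 1001 to 10000 bp away 242 higher and 246 lower of 4643 (10.5%).

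Among flanks at or above the members' median base mean, the largest GSI rise was at Rab19, at 1.64 ± 0.17 (adjusted p = 5.68e-20), followed by Lztfl1 at 1.42 ± 0.32 and D930028M14Rik at 1.26 ± 0.30 in the authors' deposited table. Rundc3a rose by 1.18 ± 0.33, Tiam1 by 0.99 ± 0.21 and Atp6v0a1 by 0.88 ± 0.26 with GSI. Further rises in the authors' deposited table were at Mir22hg, the host gene of microRNA miR-22 (0.99 ± 0.16, adjusted p = 5.61e-08), Rrad, a Ras-like GTPase gene (0.97 ± 0.29), Lamp1, a lysosomal membrane protein gene (0.93 ± 0.27), and Gadd45g, a growth-arrest gene (0.92 ± 0.16, adjusted p = 1.58e-07). Apicidin and GSI were each compared with the same DMSO libraries, so values of the same flank in both are given side by side only.

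The flanks that fell furthest with GSI were named under the same limit of base mean. Gpr56, an adhesion receptor gene (chr8:97501303-97502101, 293 bp from the TSS, base mean 140.1), fell furthest, by 1.67 ± 0.23 (adjusted p = 2.01e-11), and by 1.17 ± 0.21 with apicidin, in the authors' deposited table. There too, Mpzl2, a cell-adhesion protein gene, fell by 1.16 ± 0.29, Oprk1, the kappa-opioid receptor gene, by 0.92 ± 0.24, and Ngfr, a neurotrophin receptor gene, by 0.90 ± 0.20. Card10, a scaffold gene of NF-kB signalling, fell by 0.88 ± 0.22, Wdr64 by 0.85 ± 0.18 and the uncharacterised 2300002M23Rik by 0.83 ± 0.11 (adjusted p = 8.58e-12) in the authors' deposited table. The right-hand flank of Erbb3, a receptor tyrosine kinase family gene, fell by 0.79 ± 0.22, and the flank of Bag5, an Hsp70 co-chaperone gene, fell by 0.73 ± 0.20. Itga9 (-0.71 ± 0.24, adjusted p = 0.0272), G6pc3 (-0.71 ± 0.26, adjusted p = 0.0465) and Eif5b (-0.70 ± 0.26, adjusted p = 0.0485) passed only with the authors' filter on weak regions. Re-adjusted over all regions, their adjusted p-values were 0.0539, 0.0898 and 0.0935.

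Apicidin and GSI differed at 197 flanks when their log2 fold changes were subtracted (normal test on the deposited SEs, Benjamini-Hochberg over all 56342 regions). With apicidin 53 flanks were higher (1.67%) and 144 lower (4.53%) than with GSI, or 6.19% together, whereas 8.61% of all regions differed (3.01% higher, 5.60% lower). That SE is too large because the DMSO libraries are shared; lowered for this, 177 flanks were higher and 344 lower. Of the 197 flanks 26.9% were higher with apicidin, and 40.6% (73 higher, 107 lower) when each treatment was centred on its stronger regions. Trib3 stood apart most, with a difference of -2.38 ± 0.34 (adjusted p = 4.48e-10) and a GSI value of 0.21 ± 0.22. Negative differences followed at both Spon2 flanks (-1.55 ± 0.44 and -1.34 ± 0.33), Lamp1 (-1.47 ± 0.39), Aspm (-1.39 ± 0.36) and the upstream flank of Mthfd1, a folate enzyme gene (-1.35 ± 0.19, adjusted p = 2.68e-10). At Lamp1 both values entered the difference, 0.93 ± 0.27 with GSI and -0.54 ± 0.28 with apicidin, and only the GSI value was called (apicidin adjusted p = 0.152). Positive differences were found at Rundc3a (1.79 ± 0.45, adjusted p = 0.00192), Gpr25 (1.71 ± 0.42), Adamts6 (1.47 ± 0.45), Prdx6 (1.45 ± 0.47), Plcxd2 (1.35 ± 0.41) and Fam166b (1.33 ± 0.32). For Rab19 the difference did not pass (0.39 ± 0.24, adjusted p = 0.431), which does not show that the treatments act alike there.

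Flanks differed from the promoter of their own gene in 191 cases with apicidin and in 5 with GSI. For 1547 flanks of 1430 genes the strongest TSS-covering region of the same gene served as the partner. With apicidin the median log2 fold change was 0.10 in flanks and -0.16 in their promoters, and the median difference within a gene was 0.24. In 144 cases the flank was higher than its promoter (9.31%) and in 47 lower (3.04%), 12.3% together (normal test, Benjamini-Hochberg over 32460 regions off a TSS), against 15.8% of all regions off a TSS, of which 11.1% were higher and 4.66% lower. Strength differed as well, with median base means of 60.0 in flanks and 319 in promoters; after subtracting the trend over base mean 99 flanks were higher and 49 lower. With GSI 4 flanks were higher (0.259%) and 1 lower (0.0646%), 0.323% together, against 1.57% of all regions off a TSS (0.730% higher, 0.835% lower), and 93 flanks differed at an unadjusted p under 0.05. The difference between the treatments in these counts was not tested.

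Named flanks show the size of such splits with apicidin. At Acot7, an acyl-CoA thioesterase gene, the downstream flank (chr4:151552336-151554804, 126 bp from the TSS, base mean 452) rose by 1.01 ± 0.12 (adjusted p = 7.00e-15), per the authors' deposited table. Its promoter fell by 0.60 ± 0.10 (adjusted p = 6.45e-09), a difference of 1.62 ± 0.15 (adjusted p = 5.36e-22). The flank of 4931428F04Rik rose by 1.09 ± 0.28 and its promoter, which overlaps an RBPJ site, fell by 0.78 ± 0.18, a difference of 1.88 ± 0.33 (adjusted p = 1.13e-06). Prdx6 rose in both places, by 2.18 ± 0.32 in the flank and 0.52 ± 0.17 in the promoter, and the flank of Gm1661 rose by 1.47 ± 0.27 beside a promoter value of -0.19 ± 0.19. In the other direction, the flank of 8430427H17Rik fell by 1.18 ± 0.16 (adjusted p = 5.44e-12) while its promoter rose by 0.50 ± 0.16, a difference of -1.69 ± 0.22. The upstream flank of Gadd45g rose by 0.81 ± 0.15, but its promoter rose by 2.36 ± 0.17, so the flank was lower by 1.55 ± 0.23 on the log2 scale (a difference of -1.55, adjusted p = 1.32e-09). Bbs10, a chaperonin-like ciliary gene, and Mboat2, an acyltransferase gene, gave differences of -1.45 ± 0.38 and -1.29 ± 0.32.

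Flank and promoter were called in opposite directions with apicidin in 21 cases, 18 with a higher flank and 3 with a lower one, whereas in 34 both rose and in 75 both fell. These calls are as deposited, and such counts depend on where 0 is set. Of the 3 lower flanks, that of Fdps lost its call after centring (adjusted p = 0.138). Of the 32460 regions off a TSS, 700 rose beside a promoter that fell, 202 fell beside one that rose, 836 rose together with it and 1388 fell together with it. The flank of Hmgn2, a nucleosome-binding protein gene, rose by 0.81 ± 0.24 beside a promoter that fell by 0.80 ± 0.09. Sp2, a zinc-finger transcription factor gene, had a rise of 0.82 ± 0.13 in the flank and a fall of 0.43 ± 0.09 in the promoter. In the flank and the promoter of Sox4, a transcription factor gene, the values were 0.84 ± 0.28 and -0.18 ± 0.07, both called as deposited, at base means of 75.8 and 3275. That promoter value is small beside the centre of -0.10, and no call after centring is given for it. With GSI 5 flanks differed from their promoter by the normal test. The flank minus promoter difference was positive at Rad21, a cohesin subunit gene (0.73 ± 0.21, adjusted p = 0.0400), Ebag9 (0.59 ± 0.16), G3bp1, a stress-granule protein gene (0.59 ± 0.17), and Cdc42ep4 (0.56 ± 0.15). It was negative at Atp6v0d1, a proton pump subunit gene (-0.75 ± 0.21). At Rad21 and Ebag9 the flank was called and the promoter was not. At G3bp1, Cdc42ep4 and Atp6v0d1 the flank was not called but the promoter was, with promoter values of -0.35 ± 0.11, -0.31 ± 0.09 and 0.66 ± 0.15.

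**Figure D4:**
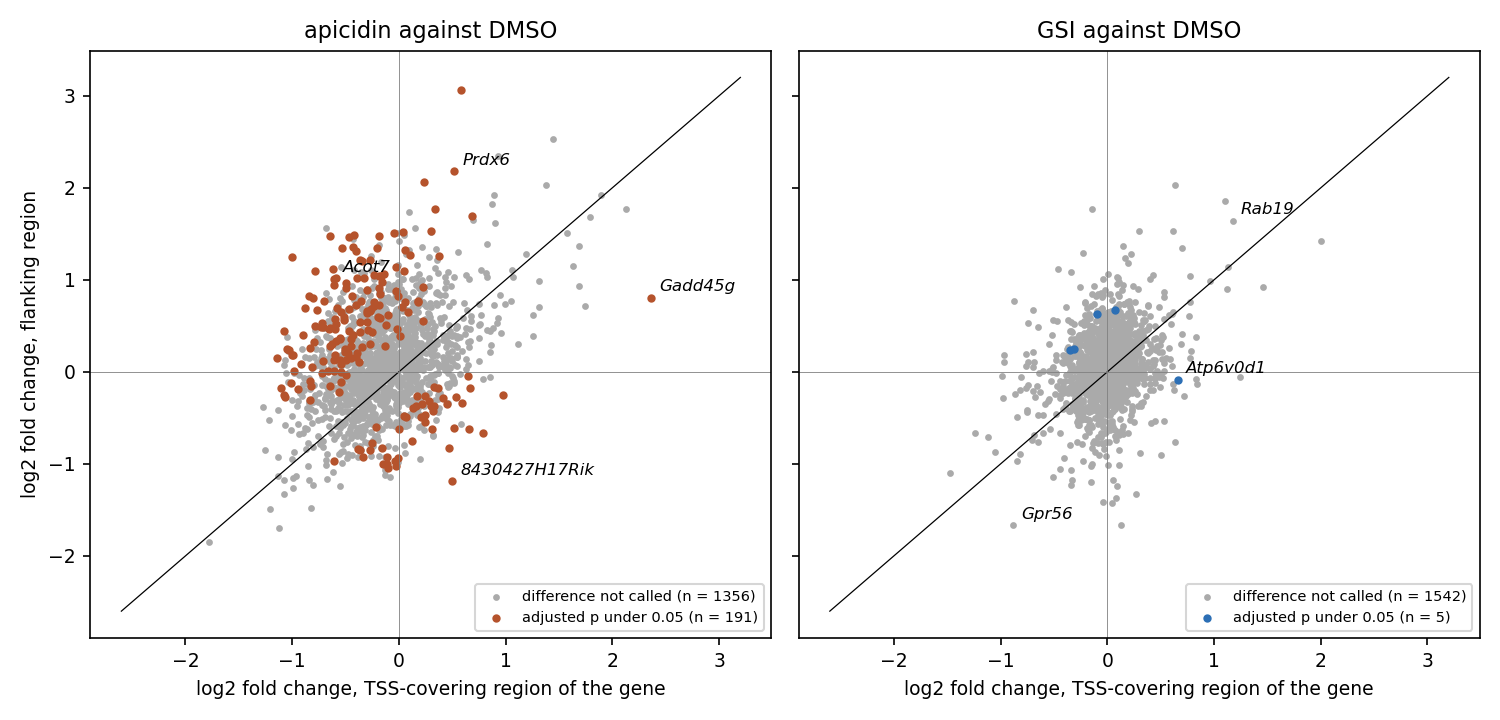
Log2 fold change of 1547 promoter-flanking regions (y axis) against that of the strongest TSS-covering region of the same gene (x axis), for apicidin (left) and GSI (right), each against DMSO; the diagonal marks equal change. Coloured pairs differed at an adjusted p under 0.05, 191 with apicidin and 5 with GSI, and the apicidin points above the diagonal (144 called) outnumber those below it (47 called).

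Where no region covered the start, its flanks often stood as a pair. Over all regions 331 such pairs were found, of which 272 had both flanks among the members, and the gap between them was 180.5 bp in the median (quartiles 133.75 and 251.5). With apicidin both flanks rose in 7 pairs and both fell in 6, a single flank was called in 72, neither in 186, and in 1 pair, Sdccag8, the flanks were called in opposite directions. At Sdccag8 the right flank rose by 0.74 ± 0.27 and the left fell by 0.26 ± 0.09, the left call being lost after centring (adjusted p = 0.222). The flanks of a pair differed from each other in 11 of these 272 pairs with apicidin (normal test, Benjamini-Hochberg over 331 pairs), whereas 18 of all 331 pairs did (5.44%), and 42 of the 272 differed at an unadjusted p under 0.05. With GSI the count was 0 (0% of all pairs), and 16 pairs differed at an unadjusted p under 0.05. This comparison was added after the data had been seen, and flanks as close as these can share sequenced fragments, so their errors need not be independent.

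Among pairs that rose on both sides with apicidin, Gadd45b, a stress-induced growth-arrest gene, rose by 2.05 ± 0.44 downstream (adjusted p = 3.34e-05) and by 2.40 ± 0.36 upstream (adjusted p = 5.66e-10) in the authors' deposited table, at base means of 44.0 and 60.8. With GSI the same flanks had values of 1.35 ± 0.46 and 1.48 ± 0.38 but no adjusted p. Cd101 rose by 0.90 ± 0.33 downstream and 1.68 ± 0.29 upstream, and Slc2a3, a glucose transporter gene, by 0.71 ± 0.27 on the right and 0.68 ± 0.16 on the left. Card6 had the largest values, 3.13 ± 0.84 on the right and 2.99 ± 0.45 on the left, at base means of only 11.8 and 42.5 in the authors' deposited table. Among pairs that fell together, both flanks of Rrm1, the large subunit gene of ribonucleotide reductase, fell, by 0.54 ± 0.11 downstream and 0.66 ± 0.24 upstream, the upstream call being lost after centring (adjusted p = 0.0717). Stil, a centriole gene, fell by 0.45 ± 0.12 downstream and 0.48 ± 0.14 upstream, though neither call held after subtracting the trend over base mean (adjusted p = 0.0657 and 0.0504).

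Other pairs were split by the start site. At Mthfd1 the downstream flank had a value of -0.22 ± 0.17 and the upstream flank (chr12:77354956-77356159) fell by 1.23 ± 0.14 (adjusted p = 1.14e-17) with apicidin, a difference of 1.01 ± 0.22 (adjusted p = 0.000447). Scoc showed the largest split, with -0.41 ± 0.18 downstream and a rise of 2.01 ± 0.47 upstream (difference -2.42 ± 0.50, adjusted p = 0.000249), the upstream flank having a base mean of only 30.9. Nr6a1, a nuclear receptor gene, had 0.19 ± 0.31 downstream and fell by 1.47 ± 0.32 upstream. Rap2b, a small GTPase gene, Ran, the GTPase gene of nuclear transport, and the ribosomal protein gene Rpl10 likewise fell upstream, by 1.15 ± 0.22, 0.66 ± 0.11 and 0.91 ± 0.11. Their downstream values were 0.10 ± 0.26, -0.11 ± 0.12 and -0.25 ± 0.18. Akap1 fell upstream by 0.57 ± 0.19, beside 0.24 ± 0.16 downstream. The split at Capn12 went the other way, with a fall of 1.45 ± 0.30 downstream beside -0.21 ± 0.27 upstream. Erbb3 and Tomm40l, of unknown strand, fell on the right by 0.87 ± 0.21 and 0.49 ± 0.14. Their left values were 0.06 ± 0.13 and 0.34 ± 0.19.

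**Figure D5:**
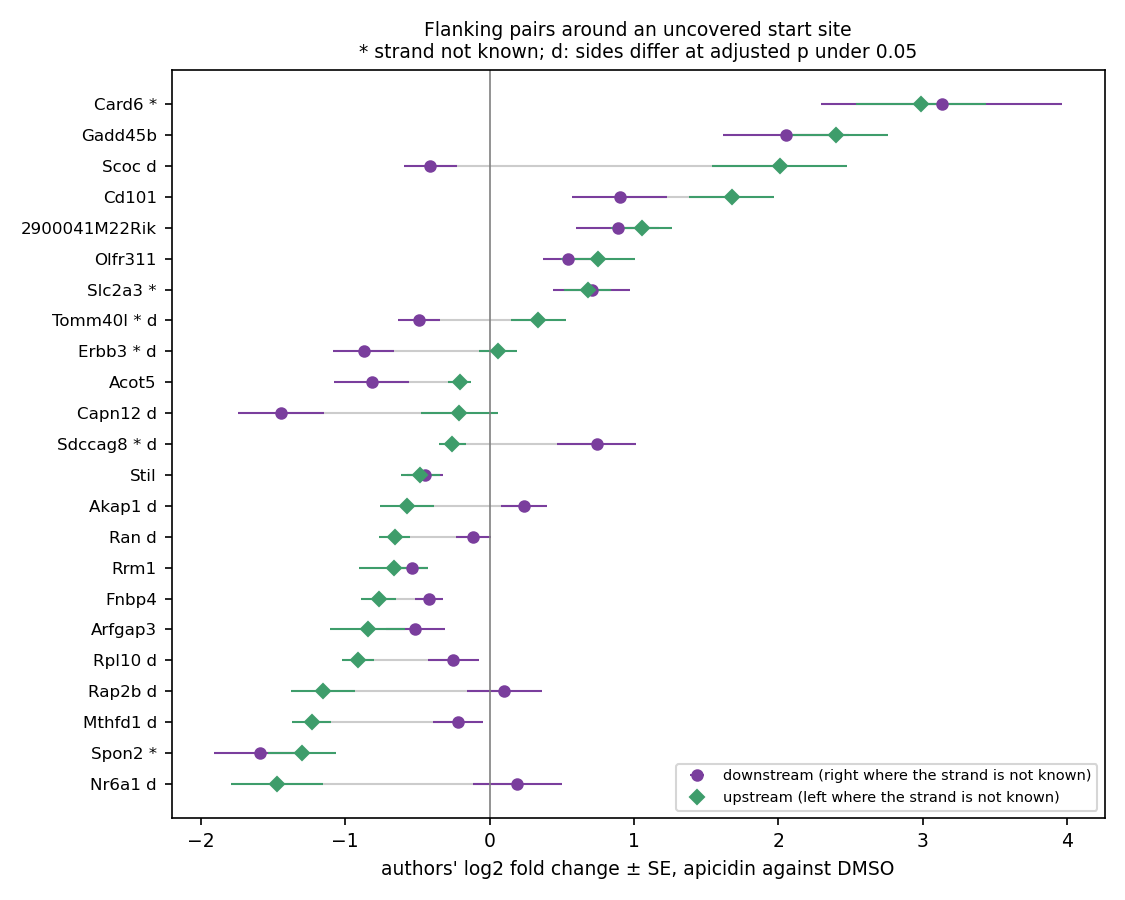
Authors' log2 fold change with its SE, apicidin against DMSO, for flanks on either side of an uncovered start site, shown for 23 pairs in which both flanks were called or in which they differed. Circles are downstream flanks and diamonds upstream ones (right and left where the strand is not known). Gadd45b stands at 2.05 ± 0.44 and 2.40 ± 0.36, and Mthfd1 at -0.22 ± 0.17 and -1.23 ± 0.14.

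Among gene lists, the T-lineage list had 7 flanks of 6 genes, with a median log2 fold change of 0.93 with apicidin against 0.0040 over all regions. Of these 4 rose with apicidin, and DESeq2 called 0 lower (0 lower at an unadjusted p under 0.05). Among them were Ccr9, the thymocyte chemokine receptor gene, at 2.38 ± 0.52 with apicidin (adjusted p = 5.93e-05), and Ccr7, the chemokine receptor gene of naive T cells, at 2.81 ± 0.66 (adjusted p = 0.000230), as the authors' deposited table gives them. Their flanks were weak (base means 35.1 and 18.3) and had no adjusted p with GSI, where their values were 2.50 ± 0.53 and 0.96 ± 0.73. With GSI 2 of the 3 tested flanks of the list were higher and 1 was lower, with a median of 0.96 over all 7, and the 2 higher ones are not reported here. Bcl11b, a T-cell commitment factor gene, fell by 0.41 ± 0.15 with GSI (adjusted p = 0.0493) and had 0.28 ± 0.14 with apicidin, but the GSI call was lost on re-adjustment over all regions (adjusted p = 0.0948). Cd6 and Runx1 had apicidin values of -0.67 ± 0.43 and 0.40 ± 0.54.

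Notch and RBPJ target genes had few flanks without RBPJ overlap. Of 11 such flanks of 7 genes, 1 rose and 1 fell with apicidin, and 2 of 6 tested fell with GSI while DESeq2 called 0 higher (0 at an unadjusted p under 0.05). The median was 0.09 with apicidin and -0.22 with GSI, against 0.0040 and 0.0022 over all regions. The flank of Hes1, the classical Notch-induced repressor gene (chr16:30063615-30065166, 276 bp from the TSS, base mean 334), fell by 0.67 ± 0.15 with GSI (adjusted p = 0.000223) and had -0.17 ± 0.14 with apicidin (adjusted p = 0.428), per the authors' deposited table. Bcl11b was the other. All 3 flanks of Il2ra, the interleukin-2 receptor alpha gene, had negative GSI values, -0.62 ± 0.25 (adjusted p = 0.0854), -0.999 ± 0.32 and -0.64 ± 0.52, the last 2 untested. The 3 flanks of Igf1r, all untested, had GSI values of -0.10 ± 0.43, 0.63 ± 0.59 and 0.18 ± 0.43. Uncalled with GSI were also Trib2 (0.21 ± 0.22), Cdkn1a (-0.20 ± 0.10) and Dtx2 (-0.22 ± 0.29). With apicidin, Trib2, a pseudokinase gene, rose by 0.77 ± 0.20 and Cdkn1a, which encodes the cell-cycle inhibitor p21, fell by 0.57 ± 0.10 (adjusted p = 2.54e-07).

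The Gadd45 family gave all the rises in the list of cell-cycle inhibitors and p53 targets, in both treatments. Of its 7 flanks 3 rose and 1, Cdkn1a, fell with apicidin, and 2 of 4 tested rose with GSI, with medians of 0.58 and 0.74. Over all regions 9.69% rose and 14.1% fell with apicidin, and 6.62% rose and 7.17% fell with GSI. Beside Gadd45b and Gadd45g, the upstream flank of Gadd45a rose by 0.74 ± 0.21 with GSI (adjusted p = 0.00531) and had 0.49 ± 0.21 with apicidin (adjusted p = 0.0675) in the authors' deposited table. Of 12 flanks of cell-cycle genes proper, 1 fell with apicidin, the upstream flank of Mcm5, a replicative helicase subunit gene, by 1.00 ± 0.13 (adjusted p = 6.54e-13), while an unadjusted p under 0.05 was reached by 1 higher flank and 2 lower ones. Mki67 (-0.08 ± 0.22) and Top2a (-0.03 ± 0.21) were close to 0 there, and DESeq2 called 0 of 10 tested with GSI (0 at an unadjusted p under 0.05).

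Metabolic and stress genes gave further calls. Among all regions 9.69% rose and 14.1% fell with apicidin, and 6.62% rose and 7.17% fell with GSI. Of 6 flanks of cholesterol synthesis genes 3 fell with apicidin in the authors' deposited table, among them Fdps by 0.31 ± 0.11 and Fdft1 by 0.26 ± 0.09. Neither of these 2 calls held after centring (adjusted p = 0.138 and 0.212) or after subtracting the trend over base mean (adjusted p = 0.356 and 0.580). Of 7 flanks of heat shock and unfolded protein genes 1 rose and 3 fell with apicidin. Trib3 led the falls, Sel1l, a gene of endoplasmic reticulum-associated degradation, fell by 0.76 ± 0.22, and Hsp90aa1 by 0.44 ± 0.14, while the downstream flank of the chaperone gene Hsph1 rose by 0.70 ± 0.25. Of these the Hsp90aa1 call did not hold after centring (adjusted p = 0.0509). With GSI, DESeq2 called 0 flanks of either list, and 0 were past an unadjusted p of 0.05.

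Genes of the acetylation machinery were mostly uncalled, as were most regions (23.8% called with apicidin and 13.8% with GSI). Of 10 flanks of HDAC and NCoR complex genes 1 fell with apicidin, that of the corepressor gene Rcor1, by 0.85 ± 0.11 (adjusted p = 4.25e-12), and 1 fell with GSI, the downstream flank of Mta1, by 0.34 ± 0.12 (adjusted p = 0.0311, or 0.0612 re-adjusted over all regions), in the authors' deposited table. Of 4 flanks of acetyltransferase and bromodomain genes 1 fell with apicidin, at Taf1 (-0.42 ± 0.16), a call lost after centring (adjusted p = 0.140). Among 7 flanks of Ets, Runx and Ikaros family genes Elk3 rose by 0.47 ± 0.14 and Spib fell by 0.69 ± 0.24 with apicidin, the Spib call being lost after centring (adjusted p = 0.0603). Of 3 interferon response flanks 1 fell, at Mx2 (-0.56 ± 0.16). The lists of Notch pathway and RBPJ cofactor, apoptosis, NF-kB and cytokine, B-lineage, myeloid, erythroid and natural killer genes held 20 flanks of 17 genes. Of these DESeq2 called 0 in either treatment; at an unadjusted p under 0.05, 5 were lower with apicidin and 1 was higher with GSI. Fibroblast and epithelial markers had no flank.

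Of 47 flanks of microRNA genes 5 rose and 6 fell with apicidin (23.4% called), a share near the 23.8% of all regions. Of all 874 regions of microRNA symbols 54 rose and 134 fell. No RefSeq promoter window was matched to these microRNA genes, so the start beside such a flank need not be that of a promoter. The flank of Mir210, the microRNA known for its induction by hypoxia (chr7:148407840-148410403, base mean 684), fell by 0.49 ± 0.10 (adjusted p = 2.57e-05), and both flanks of Mir5114 rose, by 1.10 ± 0.38 and 0.62 ± 0.21, in the authors' deposited table. The flank of Mir1982 rose by 0.81 ± 0.30, that of Mir1931 rose by 0.26 ± 0.10, and the stronger of the Mir1966 flanks fell by 0.75 ± 0.25. The calls at Mir1945, Mir1956, Mir200c, Mir301 and Mirlet7c-2 were lost after centring or after subtracting the trend. The mature sequences of miR-210 and miR-5114, whose flanks are described first, and of miR-22, whose host gene Mir22hg had a flank that rose with GSI, are given from RefSeq with the seed (bases 2 to 8) in capitals; no seed is shared among these 5.
miR-210-3p: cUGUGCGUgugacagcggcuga
miR-210-5p: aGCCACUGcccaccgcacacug
miR-5114: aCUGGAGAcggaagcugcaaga
miR-22-3p: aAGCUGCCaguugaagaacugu
miR-22-5p: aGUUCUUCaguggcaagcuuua
The 3 flanks assigned to Mir22 itself had GSI values of 0.47 ± 0.50, 0.65 ± 0.50 and 0.07 ± 0.28, none of them called, beside the rise of 0.99 ± 0.16 at the stronger Mir22hg flank (base mean 315).

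On the X chromosome, falls with apicidin outnumbered rises among flanks. Of 144 X-linked flanks 5 rose and 28 fell (19.4% lower), whereas 9.62% of 3026 autosomal flanks fell, and the medians were -0.14 and 0.03 in the authors' deposited table. Over all regions the shares lower were 17.3% of 934 on the X chromosome and 14.1% of 55292 on autosomes. Flanks assigned to small nucleolar RNA genes were few and weak. Of 23 flanks of Snora, Snord and Scarna symbols 3 rose with apicidin, Snora31 by 1.49 ± 0.38, Snora68 by 1.56 ± 0.57 and Snora81 by 2.51 ± 0.72, and DESeq2 called 0 lower (0 at an unadjusted p under 0.05). The called share was 13.0% higher, against 9.69% of all regions. Their median was 0.53 at a median base mean of 30.0. The weakest quartile of all flanks, up to a base mean of 29.5, had a median of 0.40, and the next quartile 0.03. After subtracting the trend over base mean, the 21 flanks of Snora and Snord symbols had a median of 0.56. Over all 130 regions of Snora, Snord and Scarna symbols 13 rose and 7 fell, with a median of 0.21. Many such genes lie in introns of other genes, so the start beside a flank can be that of the small RNA and not of a promoter.

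Values just inside and just outside the limits that define the flanks are given as a description. With apicidin, flanks 901 to 1000 bp from the TSS had a median log2 fold change of 0.32 (214 regions, 15 higher, 8 lower), and regions just outside, at 1001 to 1100 bp, had 0.30 (234 regions, 28 higher, 11 lower). Flanks 4000 to 4999 bp wide had 0.12 (20 regions) and those of 5000 to 5999 bp 0.18 (9 regions). The 348 regions at 1 to 1000 bp that were left out for RBPJ overlap were stronger (median base mean 202) and had a median of -0.10, with 25 higher and 69 lower with apicidin and 9 higher and 5 lower of 292 with GSI, in the authors' deposited table.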

How the data were processed

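H3K27ac was measured with 2 libraries each for apicidin, GSI and DMSO; the RBPJ and input libraries enter only through the authors' RBPJ overlap column. Per the submitters' processing notes, FastQC, Bowtie2, SAMtools and deepTools were used with mm9; the sources used here give neither their roles and versions nor the region caller. The deposited table is DESeq2 output by its column names: base mean (a signal of mean normalised read counts), log2 fold change with SE, Wald score, p-value and adjusted p-value, all made by the authors. No header names a reference, and DMSO was assumed. The authors' normalisation may remove a change common to all regions. For GSI the deposited adjusted p-value is missing for regions below a base mean of 72.1. The table holds no value per library, so values in each sample, depth and counting error are unknown. Of its value columns 1, a repeat of the base mean, was not used.

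Computed here (Python 3.11.15, numpy 2.4.6, pandas 2.3.3, scipy 1.17.1) were differences of deposited log2 fold changes divided by the root of the summed squared SEs, with two-sided normal p-values and Benjamini-Hochberg adjustment; since apicidin and GSI share DMSO libraries, that SE is too large. Flanks were set against the strongest TSS-covering region of the same symbol. The trend over base mean is the median in 50 bins of equal size, interpolated, and centring subtracts the median of regions at or above a base mean of 61.3. A flank's side of the TSS came from the distances of 2 regions of a transcript (tolerance 3 bp) and the RefSeq strand. Named are the 12 highest and 12 lowest called flanks per treatment at or above a base mean of 67.2, the 6 highest and 6 lowest differences, 4 flank and promoter differences per direction, the 5 strongest flanks, and called members of 18 gene lists (398 genes). Other flanks, the pairs across a start and the splits by side, X chromosome and RNA class were chosen after their values were seen. The members and lists were chosen with earlier results of these data known. Some of the genes so named are not reported here. The scripts were tested on simulated data.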

Additional observations from a re-analysis of the deposited data

Results flagged for a closer look

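In 17 flanks the apicidin call went against the call in the promoter of the same gene, and the difference itself passed the normal test with Benjamini-Hochberg adjustment over 32460 regions. The calls are as deposited, and some of them depend on where 0 is set. The flank was lower in 3 of the 17, with flank minus promoter differences in log2 fold change of -1.69 at 8430427H17Rik, -0.59 at Fdps and -0.57 at Msl2. The Fdps flank call was lost after centring (adjusted p = 0.138). The flank was higher in the other 14. The difference was 1.88 at 4931428F04Rik, 1.62 at Acot7, 1.61 at Hmgn2 and 1.55 at 1200014J11Rik. It was 1.25 at Sp2, 1.19 at Knstrn, 1.17 at Zswim4, 1.11 at Mxd3 and 1.02 at Sox4. It was 0.92 at Eif1, 0.91 at Zbtb5, 0.83 at Capza2, 0.80 at 2010315B03Rik and 0.79 at Slamf6. In the same way, but at base means under the members' median, Rbm12b2 (1.71 ± 0.45) and Wdr90 (1.91 ± 0.56) had a flank that rose beside a promoter that fell.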

How the results depend on the processing

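At an adjusted p threshold of 0.01, 147 flanks were higher and 206 lower with apicidin, 39 higher and 17 lower with GSI, and 24 higher and 99 lower with apicidin than with GSI. At that threshold 63 flanks were higher and 28 lower than their promoter with apicidin, and 0 higher and 0 lower with GSI. Among flanks under 2000 bp wide, 45 were higher and 24 lower with GSI. With the SE lowered for the shared DMSO libraries, 177 flanks were higher and 344 lower with apicidin than with GSI. The median apicidin log2 fold change of the flanks turned negative, to -0.0937 in flanks at or above the table's median base mean and to -0.0625 within 500 bp; the cause was not tested. Of 130 named calls under 3 alternatives each, 341 outcomes kept the call, 49 lost it and 0 turned round. No paired analysis was possible because the table holds no value per library; leaving out each replicate was not run for the same reason.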
